A study of Mus musculus with 2 samples.

Results

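The genes described are 35 nuclear genes for structural subunits of mitochondrial complex I, chosen by symbol from the 32285 genes in the files. All 35 were found, each under 1 Ensembl ID, and the rule that lists them uses no measured value. The data came from scRNA-Seq of whole retina in 2 libraries, 1 from WT mice and 1 from ND6 mutant mice, both C57BL/6J males aged 7 months. The ND6 mice carry the mtDNA change 13997G>A, which replaces proline by leucine in the ND6 protein (P25L), and the line was made by fusion of female embryonic stem cells and is kept by mating mutant females with WT males. Retinas were digested with trypsin and papain to single cells and profiled by a droplet-based 3′ method that counts unique molecular identifiers (UMIs), and the sources used here do not say how many mice were pooled. With 1 library per genotype the spread between mice is unknown, no test was possible, and every interval below is a 95% interval for counting error only.

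Complex I, the NADH:ubiquinone oxidoreductase, is the entry point of electrons from NADH into the respiratory chain. Its N module binds and oxidizes NADH, its Q module passes the electrons on to ubiquinone, and its membrane modules, named after the mtDNA-encoded subunits ND1, ND2, ND4 and ND5, pump protons. Core subunits carry the flavin, the iron-sulfur clusters or the proton channels, whereas supernumerary subunits surround the core, and many of them are needed for assembly or stability. Photoreceptors hold dense mitochondria in their inner segments and are among the most oxygen-demanding cells of the body. Of the 35 genes, 6 encode nuclear core subunits and 29 encode supernumerary subunits, and they fall into 6 modules.

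A barcode was taken as a cell if it held more than 400 UMIs from more than 200 genes and if mtDNA-encoded genes gave no more than 20% of its UMIs. This left 12529 WT cells with 54524401 UMIs (median 1878 per cell) and 18395 ND6 cells with 62949610 UMIs (median 1416). The limit on mtDNA-encoded UMIs removed 45.9% of the WT barcodes and 17.3% of the ND6 barcodes that met the other limits, and 59 cell barcodes occurred in both libraries. Clusters were called rod-like, cone-like, bipolar-like, amacrine-like, Müller-like, microglia- or macrophage-like, or RPE-like from marker genes, and the 35 genes took no part in the clustering. No cluster met the rule for retinal ganglion or horizontal cells. In the amacrine-like clusters, ganglion cell markers were raised beside amacrine markers, 8 of 8 against 8 of 8 in cluster 14 and 6 of 8 against 6 of 8 in cluster 15. RNA outside cells was measured in barcodes with 10 to 100 UMIs; there, 8 rod genes together made up 47421 CPM (UMIs scaled to 1000000 per library or class) in WT and 55013 CPM in ND6.

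Promoter sequences are shown for the genes at the ends of the ratio of ND6 to WT over all cells, 3 with the highest and 3 with the lowest ratios for which a sequence was printed. The sequences are RefSeq's (GRCm38.p6), found for 32 of the 35 genes by symbol, and run from 170 bases before the transcription start to 30 bases after it on the strand of the gene. Capitals mark matches, on either strand, to GGGCGG (the SP1 motif), to CCAAT, to TATAAA, to the NRF1 motif, or to AAGATGGC (YY1), and the letters CCGGAAG (ETS) and AAGGTCA (ERR) were searched for as well.
Ndufv3: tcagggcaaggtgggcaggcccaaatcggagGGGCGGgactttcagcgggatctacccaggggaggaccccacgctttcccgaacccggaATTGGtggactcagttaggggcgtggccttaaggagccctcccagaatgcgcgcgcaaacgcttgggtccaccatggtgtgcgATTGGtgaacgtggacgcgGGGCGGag
Ndufb8: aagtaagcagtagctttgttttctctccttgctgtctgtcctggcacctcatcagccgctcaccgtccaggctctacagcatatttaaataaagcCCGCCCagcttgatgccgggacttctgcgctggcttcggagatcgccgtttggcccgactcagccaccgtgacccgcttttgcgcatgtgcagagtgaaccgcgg
Ndufs6: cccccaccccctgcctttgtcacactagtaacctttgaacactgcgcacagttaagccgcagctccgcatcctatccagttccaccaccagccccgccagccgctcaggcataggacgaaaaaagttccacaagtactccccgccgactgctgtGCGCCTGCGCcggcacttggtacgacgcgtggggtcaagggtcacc
Ndufb6: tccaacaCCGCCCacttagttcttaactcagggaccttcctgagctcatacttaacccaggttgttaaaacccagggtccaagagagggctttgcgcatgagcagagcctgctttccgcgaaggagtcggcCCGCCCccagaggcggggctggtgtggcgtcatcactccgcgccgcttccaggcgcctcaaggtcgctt
Ndufab1: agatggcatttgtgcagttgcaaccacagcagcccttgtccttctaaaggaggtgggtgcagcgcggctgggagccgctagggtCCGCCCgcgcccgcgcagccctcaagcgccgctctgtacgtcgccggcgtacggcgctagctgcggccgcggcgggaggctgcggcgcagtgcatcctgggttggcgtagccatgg
Ndufa3: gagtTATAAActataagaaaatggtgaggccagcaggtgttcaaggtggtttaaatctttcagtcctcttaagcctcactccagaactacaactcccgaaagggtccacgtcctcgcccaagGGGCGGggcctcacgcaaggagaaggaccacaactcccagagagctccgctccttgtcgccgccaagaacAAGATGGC
They lie at chr17:31519945-31520144 (plus strand) for Ndufv3, chr19:44555413-44555612 (minus) for Ndufb8, chr13:73328453-73328652 (minus) for Ndufs6, chr4:40279392-40279591 (minus) for Ndufb6, chr7:122101819-122102018 (minus) for Ndufab1 and chr7:3617203-3617402 (plus) for Ndufa3. The SP1 letters occurred in 5 of these 6 windows, at both ends of the ranking, and the NRF1 letters only in Ndufs6.

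Over the whole window of 300 bases around the start, NRF1 letters were present in 7 of 32 promoters of the subunit genes (21.9%) and in 4.78% of all 27025 promoters. YY1 letters were present in 7 of 32 (21.9%) against 2.88% of all promoters, and SP1 letters in 15 of 32 (46.9%) against 35.9%. ETS letters were found in 4 of 32 (12.5%) against 9.12%, ERR letters in 3 of 32 (9.38%) against 4.66%, CCAAT in 10 of 32 (31.2%) against 37.9%, and TATAAA in 4 of 32 (12.5%) against 14.2%. The promoters of the subunit genes had a median GC content of 59.2% against 52.7% over all promoters, and its part in these shares was not tested. Letters that match are a description and not evidence of binding.

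Over all cells, the 35 genes together made up 8172 CPM in WT (interval 8148 to 8196; 445561 UMIs) and 9539 CPM in ND6 (9515 to 9563; 600483 UMIs). Levels of single genes spanned a 6.66-fold range in WT and a 7.73-fold range in ND6, although most of these subunits are present as a single copy in the enzyme. A 3′ library counts molecules by their ends, so levels were compared between genes without division by transcript length. Ndufb11, an X-linked subunit of the ND4 module, was the most abundant in WT with 443 CPM and reached 510 CPM in ND6. Ndufb8 of the ND5 module followed with 421 CPM in WT and led in ND6 with 561 CPM. Ndufa2, a small N-module subunit with a thioredoxin-like fold, had 386 CPM in WT and 497 CPM in ND6, and in WT its interval overlapped that of Ndufb9 at 385 CPM.

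At the other end stood Ndufa9, a subunit beside the ubiquinone site with 66.6 CPM in WT and 72.6 CPM in ND6, and Ndufs1, the largest core subunit of the N module, with 67.3 and 74.8 CPM. Their intervals overlapped in each library, so their order is not resolved. Ndufs4, which joins late in assembly, was next with 100.1 CPM in WT and 116 CPM in ND6. The 6 core genes together made up 807 CPM in WT and 928 CPM in ND6, that is 9.87% and 9.73% of the summed level.

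**Figure D1:**
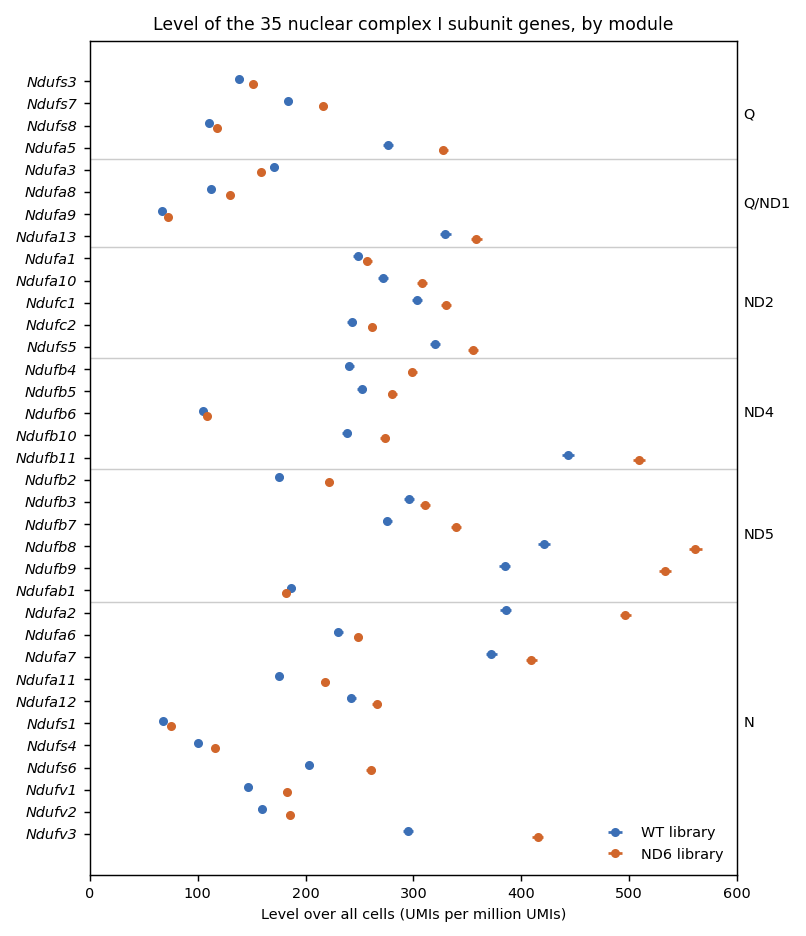
Level over all cells of each of the 35 genes (horizontal axis, CPM) in the WT library (blue) and the ND6 library (orange), with genes grouped by module and bars for the 95% counting interval, mostly narrower than the points. Levels run from 66.6 to 443 CPM in WT and from 72.6 to 561 CPM in ND6, and all genes but Ndufa3 and Ndufab1 lie further right in ND6, a direction that turned under other processing for Ndufa1, Ndufb6 and Ndufs1.

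The comparison of ND6 with WT asks whether a change in an mtDNA-encoded subunit goes with other levels of the nuclear partners. The summed level was higher in ND6 by 0.22 on the log2 scale (0.22 to 0.23). The level was higher in ND6 for 33 of the 35 genes and lower for 2, where 56.7% of the 15888 genes with at least 20 UMIs and 51% of the 10217 genes with at least 500 UMIs were higher. All 35 had at least 500 UMIs. The direction held in all 7 other ways of processing for 32 of the 35, the exceptions being Ndufa1, Ndufb6 and Ndufs1. The interval lay above 0 for 32 genes and below 0 for 2. The share of all genes with such intervals was not counted, and at these UMI totals small ratios already give them. The median log2 ratio of the 35 genes was 0.18 against 0.07 for all genes tested. None of the 35 reached a log2 ratio of 0.5 in either direction, a size passed by 30.3% of all genes tested and by 15.7% of those with at least 500 UMIs. In RNA outside cells, the 35 genes together had 8800 CPM in WT (1990 UMIs) and 10131 CPM in ND6 (3944 UMIs). The log2 ratio was 0.20 (0.13 to 0.28). Scaled to all UMIs, the sums in cells thus lay below those outside cells and the ratio was alike in size. However, mtDNA-encoded genes gave 18.03% of the UMIs outside cells in WT and 8.72% in ND6. In cells these shares differed less, at 8.19% and 7.02%. The ratio outside cells was not computed per nuclear UMI, so the likeness in size holds for all UMIs only. The part of free RNA in the difference over all cells was not tested.

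The 5 highest ratios belonged to 2 genes of the ND5 module and 3 of the N module. Ndufv3, the small accessory subunit of the NADH-oxidizing part, had 295 CPM in WT and 415 CPM in ND6, a log2 ratio of 0.495 (0.47 to 0.52) just under the size limit. Ndufb9, a membrane-arm subunit of the LYR family, had 385 and 533 CPM (0.47, 0.45 to 0.50). Ndufb8 had 421 and 561 CPM (0.41, 0.39 to 0.44). Ndufa2 had 386 and 497 CPM (0.37, 0.34 to 0.39), and Ndufs6, a zinc-binding N-module subunit, 203 and 260 CPM (0.36, 0.33 to 0.40). The intervals of these genes do not reach the log2 ratio of the sum.

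The 5 lowest ratios were spread over 4 modules. Ndufa3, a single-pass membrane subunit of the Q/ND1 module, had 171 CPM in WT and 159 CPM in ND6 (log2 ratio -0.11, -0.15 to -0.07), and Ndufab1, the mitochondrial acyl carrier protein that also serves lipoic acid synthesis, 187 and 181 CPM (-0.04, -0.08 to -0.002). Ndufb6 had 105 and 108 CPM (0.05, -0.003 to 0.10), and its direction turned in 2 of 7 other ways of processing. Ndufa1, an X-linked membrane subunit, had 248 and 257 CPM (0.05, 0.02 to 0.09), and its direction turned in 4 of 7, down to -0.13 when each cell was thinned to 400 UMIs. Ndufb3 had 296 and 311 CPM (0.07, 0.04 to 0.10). Ndufa3 and Ndufab1 kept their direction in all 7, and so stood apart from the sum in each of them.

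Some of these counts have a limit set by the annotation. In GENCODE M21, Ndufab1, Ndufs6, Ndufb4 and Ndufa11 have processed copies elsewhere in the genome, Ndufb8, Ndufb9 and Ndufb2 each overlap a predicted protein-coding gene on the same strand, and Ndufc2 overlaps a processed pseudogene on its strand. None of these overlapping genes and copies was a feature of the files, so their reads could have been discarded or counted with the named gene. Ndufa13 overlaps Yjefn3 on its strand, which had 143 UMIs in WT and 189 in ND6 against 17981 and 22571 of Ndufa13.

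By module, the ratio was largest for the ND5 module, followed by the N module. All 11 genes of the N module were higher in ND6, with a summed level of 2377 CPM in WT and 2873 CPM in ND6 (log2 ratio 0.27, 0.26 to 0.28). The ND5 module had 5 of 6 genes higher and 1740 against 2149 CPM (0.30, 0.29 to 0.32). The ND4 module had 5 of 5 higher, though Ndufb6 was the gene that turned in 2 of 7 ways of processing, with 1279 and 1471 CPM (0.20, 0.19 to 0.22).

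The Q module had 4 of 4 higher, with 710 and 813 CPM (0.20, 0.18 to 0.22). The ND2 module had 5 of 5 higher, Ndufa1 with the exception given above, with 1386 and 1513 CPM (0.13, 0.11 to 0.14). The Q/ND1 module had 3 of 4 higher and the smallest ratio, with 679 and 719 CPM (0.08, 0.06 to 0.10). The modules follow the supplemental gene list of the study, and by that assignment the ND5 and N modules stood above the ND2 and Q/ND1 modules. The list was not checked against the place of each subunit in the enzyme. The genes of a module were measured in the same 2 libraries and are not replicates.

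The core subunits moved with the rest. Ndufv1, which holds the flavin that takes electrons from NADH, had 147 CPM in WT and 183 CPM in ND6 (log2 ratio 0.32, 0.27 to 0.36). Ndufv2, its iron-sulfur partner, had 159 and 185 CPM (0.22, 0.18 to 0.26). Ndufs1 had a log2 ratio of 0.15 (0.09 to 0.21), which turned to -0.01 when cells were thinned to 400 UMIs. In the Q module, Ndufs7, which carries the last iron-sulfur cluster before ubiquinone, had 184 and 216 CPM (0.23, 0.19 to 0.27). Ndufs3 had 139 and 152 CPM (0.13, 0.09 to 0.17), and Ndufs8, a ferredoxin-like subunit, 111 and 118 CPM (0.09, 0.04 to 0.14). Their ratios lay inside the range of the supernumerary genes.

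The ND2 module is where the Ndufc and several small subunits attach to the membrane arm. Ndufa10, with a nucleoside kinase-like fold, had 272 CPM in WT and 308 CPM in ND6 (log2 ratio 0.18, 0.15 to 0.21). Ndufs5 had 320 and 356 CPM (0.15, 0.12 to 0.18), Ndufc1 303 and 330 CPM (0.12, 0.09 to 0.15), and Ndufc2 243 and 262 CPM (0.11, 0.07 to 0.14). Each of these 4 lay below the ratio of the sum.

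The remaining genes lay within the limits already given. In the ND4 and ND5 modules, log2 ratios were 0.32 for Ndufb4, 0.15 for Ndufb5, 0.20 for Ndufb10, 0.20 for Ndufb11, 0.34 for Ndufb2 and 0.30 for Ndufb7. In the N module they were 0.11 for Ndufa6, 0.14 for Ndufa7, 0.31 for Ndufa11, 0.13 for Ndufa12 and 0.21 for Ndufs4. In the Q and Q/ND1 modules they were 0.24 for Ndufa5, 0.21 for Ndufa8, 0.12 for Ndufa9 and 0.12 for Ndufa13.

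**Figure D2:**
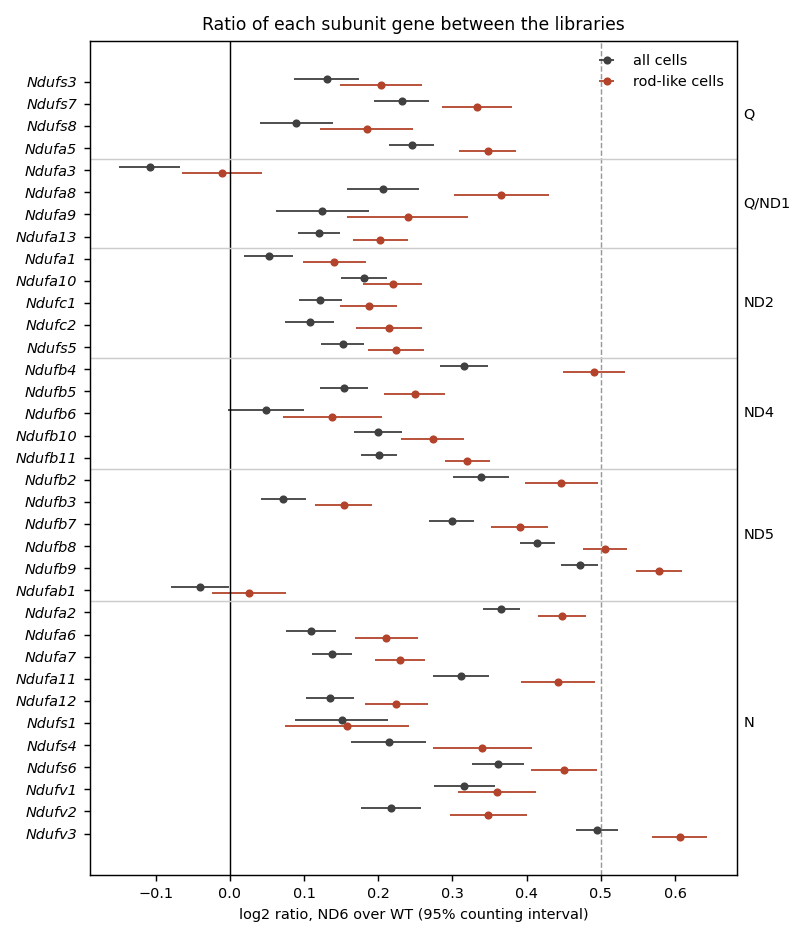
Log2 ratio of ND6 over WT (horizontal axis) for each gene over all cells (black) and over rod-like cells (red), with 95% counting intervals, grouped by module; the dashed line is the size limit of 0.5. In rod-like cells the points lie to the right of those over all cells, and Ndufv3, Ndufb9 and Ndufb8 pass 0.5 there.

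Rod-like cells were 9715 of the WT cells and 13104 of the ND6 cells, in 6 clusters. Their summed level was 8228 CPM in WT and 10263 CPM in ND6 (log2 ratio 0.32, 0.31 to 0.33), and 34 of 35 genes were higher in ND6, where 52.1% of the 13383 genes tested and 42.7% of the 8525 with at least 500 UMIs were higher. The median log2 ratio of the 35 genes was 0.25 against 0.02 for all genes tested. Of the 35, 3 passed 0.5: Ndufv3 (282 and 429 CPM, 0.61), Ndufb9 (399 and 596 CPM, 0.58) and Ndufb8 (451 and 641 CPM, 0.51). Upwards, 19.4% of all genes tested passed it, and 5.45% of those with at least 500 UMIs, as all 35 had. The 3 of 35 thus lay between the shares that the UMI minimum gives. Ndufa3, at 166 CPM in WT and 165 CPM in ND6 (-0.01, -0.06 to 0.04), was the gene that was not higher, while the direction turned in 2 of 10 other ways of processing for Ndufab1 (185 and 188 CPM, 0.03), in 3 for Ndufa1 and in 1 for Ndufb6.

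The rod-like clusters differed widely in Malat1, an RNA that stays in the nucleus, and in the summed subunit level. In cluster 1, with the least Malat1, the 35 genes had 11988 CPM in WT and 13730 CPM in ND6, with Malat1 at 1394 and 2376 CPM. In cluster 5, with the most Malat1, they had 5340 and 5317 CPM, with Malat1 at 73139 and 87293 CPM. Cluster 1 exceeded cluster 5 by a log2 ratio of 1.17 in WT and 1.37 in ND6. That is larger than any difference in the sum between the libraries within these clusters, and the clusters are described without a test because they were drawn from the same cells.

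Single subunits did not follow this gradient alike. Ndufa1 was highest in cluster 1 relative to cluster 5, with log2 ratios of 2.06 in WT and 2.24 in ND6, followed in WT by Ndufa13, the GRIM-19 subunit, at 1.74 and by Ndufc1 at 1.61. Ndufs1 was lower in cluster 1 (-0.47 in WT, -0.52 in ND6), as was Ndufa10 (-0.32 and -0.10). Ndufs4 was nearly level in WT (0.03) and higher in cluster 1 in ND6 (0.75). Over all genes tested, 19.9% in WT and 21.8% in ND6 were higher in cluster 1.

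Between the libraries, the sum was higher in ND6 in 5 of the 6 rod-like clusters and level in cluster 5. Log2 ratios of the sum were 0.22 in cluster 0, 0.20 in cluster 1, 0.09 in cluster 2, 0.25 in cluster 3 and 0.35 in cluster 6, and -0.01 (-0.04 to 0.03) in cluster 5. In clusters 0, 1 and 2 the median log2 ratio of all genes tested was itself 0.19, 0.20 and 0.19, so relative to it the sum was about level in clusters 0 and 1 and lower in cluster 2. The number of the 35 genes higher in ND6 was 31 in cluster 0, 32 in cluster 1, 23 in cluster 2, 32 in cluster 3, 13 in cluster 5 and 34 in cluster 6. The share of all genes higher was 67.4%, 69.1%, 66.9%, 54.3%, 54.5% and 44.4% in the same order. Cluster 2 thus lay at the share of all genes and cluster 5 below it, whereas cluster 6, which has the most UMIs per cell (median 13600 and 10636), differed most from its background. With the 6 clusters weighted equally, the log2 ratio of the sum was 0.19 in place of 0.32. The libraries filled the clusters in different proportions. Cluster 1 held 1907 of the 9715 WT rod-like cells and 3422 of the 13104 in ND6, whereas cluster 3 held 1967 and 1634. Malat1 over the rod-like class was 32681 CPM in WT and 26331 CPM in ND6. The part of this mix in the ratio of the class was not tested further.

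Of the 35 genes, 12 were higher in ND6 in all 6 rod-like clusters and 11 in 5 of them. The shares of all genes that reach these numbers of clusters were not counted. In clusters 0, 1 and 2 alone, 67.4%, 69.1% and 66.9% of all genes were higher. The 12 include Ndufv3 (log2 ratios from 0.21 to 0.69), Ndufb9 (0.28 to 0.62), Ndufb8 (0.13 to 0.59) and, of the core genes, Ndufv1 (0.20 to 0.41), Ndufs1 (0.09 to 0.37) and Ndufs3 (0.04 to 0.26). Ndufa3 and Ndufa1 were higher in only 1 cluster, and Ndufab1 in 2.

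**Figure D3:**
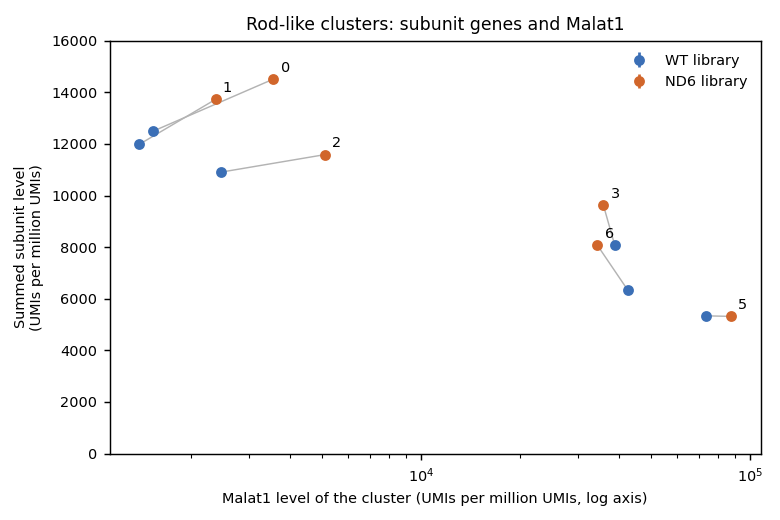
Summed level of the 35 genes (vertical axis, CPM) against the Malat1 level (horizontal log axis) in the 6 rod-like clusters, numbered, with the WT (blue) and ND6 (orange) value of each cluster joined by a line; counting intervals are smaller than the points. Clusters 0, 1 and 2 have low Malat1 and sums from 10909 to 14513 CPM, and cluster 5 has the most Malat1 and the lowest sum in both libraries.

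In cone-like cells (331 in WT, 330 in ND6, 1 cluster), the sum was 8953 CPM in WT and 10388 CPM in ND6 (log2 ratio 0.21, 0.19 to 0.24). Here 31 of 35 genes were higher, against 50.7% of the 10030 genes tested. Ndufs6 had the highest ratio, with 191 CPM in WT and 284 CPM in ND6 (0.57, 0.40 to 0.74), and Ndufa9 the lowest, with 92.2 and 86.6 CPM (-0.09, -0.38 to 0.19), a direction that turned in 1 of 10 ways of processing. Of the core genes, Ndufs1 (90.2 and 111 CPM, 0.30), Ndufv1 (0.26) and Ndufv2 (0.20) had intervals above 0, and the direction of Ndufs1 turned when cells were thinned.

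In bipolar-like cells (204 and 560, 4 clusters), the sums were nearly level at 8553 CPM in WT and 8494 CPM in ND6 (log2 ratio -0.01, -0.04 to 0.02). Higher in ND6 were 19 of 35 genes, against 57.7% of the 11287 genes tested. Taking all RNA of the rod genes here as free RNA gives an upper limit of 60.4% in WT and 58.9% in ND6. After subtraction at this limit, the log2 ratio of the sum was -0.41. The result for the class thus depends on the share of free RNA, which was not measured. Without subtraction, log2 ratios of the sum were 0.04, 0.07, -0.01 and 0.03 in clusters 12, 16, 18 and 21. None differed beyond counting error. The rod genes made up 45010 CPM in cluster 12, but 13410, 10952 and 11317 CPM in clusters 16, 18 and 21. Single genes differed between the libraries. Ndufv1 had 135 CPM in WT and 167 CPM in ND6 (0.31, 0.08 to 0.54), and Ndufa1 had 273 and 206 CPM (-0.40, -0.58 to -0.22), each with the same direction in all 10 other ways of processing. Ndufa5 also stood lower in ND6, at 399 and 318 CPM (-0.32, -0.47 to -0.18).

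Amacrine-like cells (83 and 308, 2 clusters) went the other way. The sum was 10400 CPM in WT and 8591 CPM in ND6 (log2 ratio -0.28, -0.31 to -0.24), and only 3 of 35 genes were higher in ND6, against 54.1% of the 10613 genes tested. The intervals lay below 0 for 22 genes and above 0 for 0, and the share of all genes with such intervals was not counted. Ndufc2, a small membrane subunit, had 595 CPM in WT, more than in rod-like cells (225 CPM), and 385 CPM in ND6 (-0.63, -0.80 to -0.46). Ndufv3 was the highest, with 264 and 275 CPM (0.06, -0.18 to 0.30), and its direction turned in 2 of 9 other ways of processing.

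Other measures moved with the lower level in amacrine-like cells. The 8 rod genes made up 15693 CPM in WT and 26040 CPM in ND6 there. Cluster 14 held 66 of the 83 WT cells, and cluster 15 held 167 of the 308 ND6 cells with a median of 1550 UMIs, against 8025 UMIs in its 17 WT cells. In cluster 14, with medians of 6690 and 7527 UMIs, the sum was 10640 CPM in WT and 9115 CPM in ND6 (log2 ratio -0.22, -0.27 to -0.18), with 3 of 35 genes higher against 50.5% of all genes tested. After subtraction of free RNA at the upper limit set by the 8 rod genes, the ratio in the class was -0.64. With finer clusters it was -0.09 with 10 of 35 genes higher. The part of rod RNA in this difference was otherwise not tested.

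In Müller-like cells (36 and 93, 1 cluster), the sum was 6037 CPM in WT and 7583 CPM in ND6 (log2 ratio 0.33, 0.26 to 0.40), with 29 of 35 genes higher against 46.1% of the 8015 genes tested. Ndufb7, which faces the intermembrane space, had 161 CPM in WT and 296 CPM in ND6 (0.88, 0.49 to 1.27). Ndufb6 had 88.5 and 61.0 CPM (-0.54, -1.32 to 0.19), and its direction turned in 2 of 7 ways of processing. Median depth differed, at 10130 UMIs per cell in WT and 1631 in ND6, and the 8 rod genes stood at 38274 and 38233 CPM, against 47421 and 55013 CPM in free RNA. The part of depth was not tested beyond thinning, which left 1 of the 35 genes with at least 20 UMIs.

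In microglia- or macrophage-like cells (268 and 152, 2 clusters), the sum was 5850 CPM in WT and 7386 CPM in ND6 (log2 ratio 0.34, 0.27 to 0.41), with 29 of 35 genes higher against 53.5% of the 7161 genes tested. Ndufb8 had 254 CPM in WT and 423 CPM in ND6 (0.73, 0.42 to 1.04), and Ndufb6 had 66.2 and 53.9 CPM (-0.30, -1.13 to 0.47), a direction that turned in 1 of 9. In cluster 22, where the 8 rod genes were lowest of this class (9872 CPM), the sum was 3138 CPM in WT and 4450 CPM in ND6 (0.50, 0.36 to 0.65), with 26 of 35 genes higher against 47.1% of all genes tested. The level there was below that of every other cluster, in each library.

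RPE-like cells (331 and 964, 2 clusters) had the highest sums, 13431 CPM in WT and 13127 CPM in ND6 (log2 ratio -0.03, -0.06 to -0.01), with 12 of 35 genes higher against 50.1% of the 9637 genes tested. Cluster 20 held 96 WT cells and 4 ND6 cells, and its WT sum was 16216 CPM, with little rod RNA (4578 CPM for the 8 rod genes). Without it, in cluster 7 alone, the sum was 10465 CPM in WT and 13070 CPM in ND6 (0.32, 0.29 to 0.36), and 31 of 35 genes were higher against 39.6% of all genes tested, whose median log2 ratio was -0.15. The direction of the sum in RPE-like cells thus depends on cluster 20 and no direction is given for the class.

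Within the RPE-like class, Ndufa10 had 171 CPM in WT and 250 CPM in ND6 (log2 ratio 0.55, 0.34 to 0.77), and it was higher in ND6 in all 10 other ways of processing. In cluster 7 alone, Ndufa10 had 205 CPM in WT and 250 CPM in ND6, a smaller rise than that of the sum there. Ndufa3 had 485 and 358 CPM (-0.44, -0.59 to -0.29), but 356 CPM in each library in cluster 7. Ndufv1 had 107 and 149 CPM (0.49, 0.21 to 0.76), and 104 and 150 CPM in cluster 7.

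**Figure D4:**
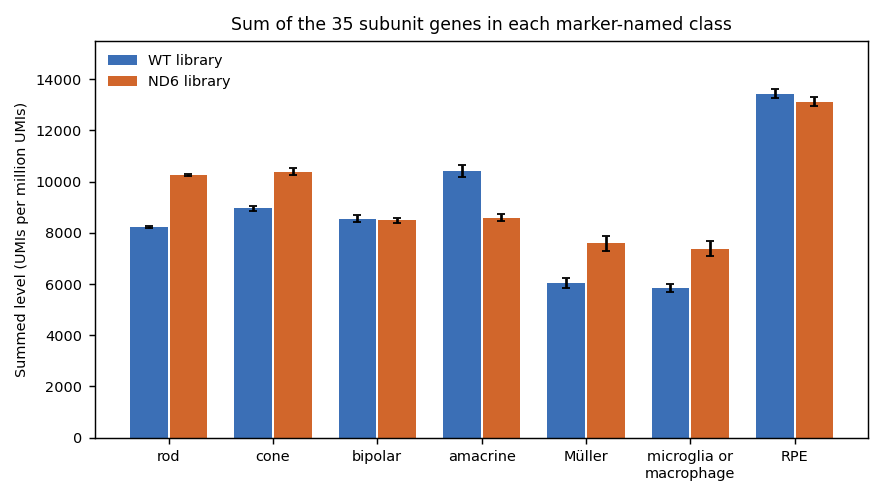
Summed level of the 35 genes (vertical axis from 0, CPM) in 7 marker-named classes, with WT (blue) and ND6 (orange) bars and 95% counting intervals. ND6 stands above WT in rod-like, cone-like, Müller-like and microglia- or macrophage-like cells and below it in amacrine-like cells, and the RPE-like bars are the tallest in both libraries.

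Set against rod-like cells of the same library, the order of the classes differed between the libraries. In WT, the sum was lower than in rod-like cells in 2 classes, Müller-like (log2 ratio -0.45) and microglia- or macrophage-like (-0.49). In ND6, it was lower in 4, bipolar-like (-0.27) and amacrine-like (-0.26) besides Müller-like (-0.44) and microglia- or macrophage-like (-0.47). Cone-like cells stood above rod-like cells in WT (0.12, 0.10 to 0.14) and did not differ beyond counting error in ND6 (0.02, -0.003 to 0.04). RPE-like cells stood above them by 0.71 in WT and 0.36 in ND6, but by 0.35 in each library when cluster 20 was left out. Between WT and ND6, the amacrine-like value thus went from 0.34 above to 0.26 below. The share of the 35 genes above their rod-like level followed the sums. In cone-like cells it was 25 of 35 in WT and 22 in ND6, against 55.7% and 57.3% of all genes tested. In bipolar-like cells it was 19 and 6 (all genes 61.9% and 72.9%), and in amacrine-like cells 28 and 7 (58.3% and 68.5%). In Müller-like cells it was 4 and 2 (66.8% and 61.3%), and in microglia- or macrophage-like cells 1 and 2 (36.4% and 42.5%). In WT, the count of classes below rod-like cells was 4 with a mean over cells and 5 with thinned cells. With each cell thinned to 400 UMIs, rod-like cells held on average 4.063 UMIs of the 35 genes in WT and 4.77 in ND6. Cone-like cells held 3.61 and 4.29, bipolar-like cells 3.77 and 3.51, and amacrine-like cells 4.060 and 2.90. The cone-like and amacrine-like positions above rod-like cells in WT thus hold for summed UMIs and not for thinned cells.

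The make-up of the summed level also differed between classes. The gene whose share ranged most was Ndufs1, which was 1.20% of the sum in Müller-like cells of WT and 0.467% in RPE-like cells (0.997% and 0.431% in ND6). Ndufa10 ranged from 4.27% in Müller-like to 1.27% in RPE-like cells in WT (3.03% and 1.91% in ND6). Ndufv1 ranged from 2.13% in cone-like to 0.793% in RPE-like cells in WT (2.21% and 1.14% in ND6). These genes, 2 of them core subunits of the N module, had their smallest share in RPE-like cells. In cluster 7 alone, the WT shares were 0.613% for Ndufs1, 1.96% for Ndufa10 and 0.996% for Ndufv1. Malat1 differed between these classes as well, at 47677 CPM in Müller-like, 36611 in cone-like and 10802 in RPE-like cells of WT. Within rod-like cells, Ndufs1 and Ndufa10 were lower in the cluster with the least Malat1. Ndufv1 was raised less there than the sum, by 0.67 against 1.17 in WT. The part of the Malat1 difference in these shares was not tested.

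In the opposite direction, Ndufv3 had its largest share in RPE-like cells (5.86% in WT, 5.95% in ND6) and its smallest in amacrine-like cells (2.54% and 3.20%). Ndufc2 had its largest in amacrine-like cells (5.72% and 4.48%) and its smallest in rod-like cells (2.74% and 2.55%). The difference between RPE-like and rod-like cells was therefore uneven across genes. In WT, 31 of 35 genes had a higher level in RPE-like cells, against 34.9% of all genes tested, and in ND6 27 of 35, against 37.2%. Ndufa3 (166 CPM in rod-like, 485 CPM in RPE-like cells of WT, log2 ratio 1.55) and Ndufv3 (282 and 787 CPM, 1.48) were furthest above. Without cluster 20, the WT ratios were smaller for these, 1.10 for Ndufa3 (356 CPM) and 0.97 for Ndufv3 (553 CPM), and 30 of 35 genes were higher in RPE-like cells of WT against 42.1% of all genes tested, and 28 of 35 in ND6 against 37.2%. Below, with cluster 20 included, were Ndufa10 (280 and 171 CPM, -0.71), Ndufv1 (152 and 107 CPM, -0.51), Ndufb8 (451 and 374 CPM, -0.27) and Ndufs1 (64.8 and 62.7 CPM, -0.05). In cluster 20 of WT, Ndufv3 reached 1007 CPM and Ndufb11 998 CPM, while Ndufs1 stayed at 61.3 CPM.

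Across the 7 classes, some genes kept their place relative to the sum. The log2 ratio of ND6 over WT was above that of the summed level in every class for 4 genes, Ndufv3, Ndufb9, Ndufb8 and Ndufa2. It was above in no class for 4 others, Ndufa3, Ndufb6, Ndufc2 and Ndufa6. In cluster 7 of the RPE-like class alone, the sum was 10465 CPM in WT and 13070 CPM in ND6. Ndufb8 (412 and 469 CPM) and Ndufb9 (403 and 494 CPM) rose less than this sum there. Ndufv3 (553 and 770 CPM) and Ndufa2 (487 and 657 CPM) rose more. The place of Ndufb8 and Ndufb9 in the RPE-like class thus depends on the cluster held almost wholly by the WT library. Ndufv1 was the 1 gene with a ratio above 0 in all 7 classes, although it was 0.01 (-0.32 to 0.34) in amacrine-like cells and turned there in 5 of 9 ways of processing. A further 7 genes were above 0 in 6 classes, and Ndufa3 in 1, the cone-like cells, where the ratio was 0.02 and turned in 5 of 10 ways of processing. The shares of all genes that meet these rules across classes were not counted, so the tallies are a description only. The classes share a library and its free RNA and are not independent. Taking all RNA of the 8 rod genes in a class as free RNA gives an upper limit on the share of free RNA. The limit was 33.1% in amacrine-like cells of WT and 47.3% in those of ND6, and 80.7% and 69.5% in Müller-like cells. The limits were 60.4% and 58.9% in bipolar-like, 66.2% and 66.7% in microglia- or macrophage-like, and 54.8% and 68.6% in RPE-like cells. Barcodes outside cells had medians of 17 UMIs in WT and 33 in ND6, far below the medians of the classes, and doublets were kept. The true share of free RNA was not measured.

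**Figure D5:**
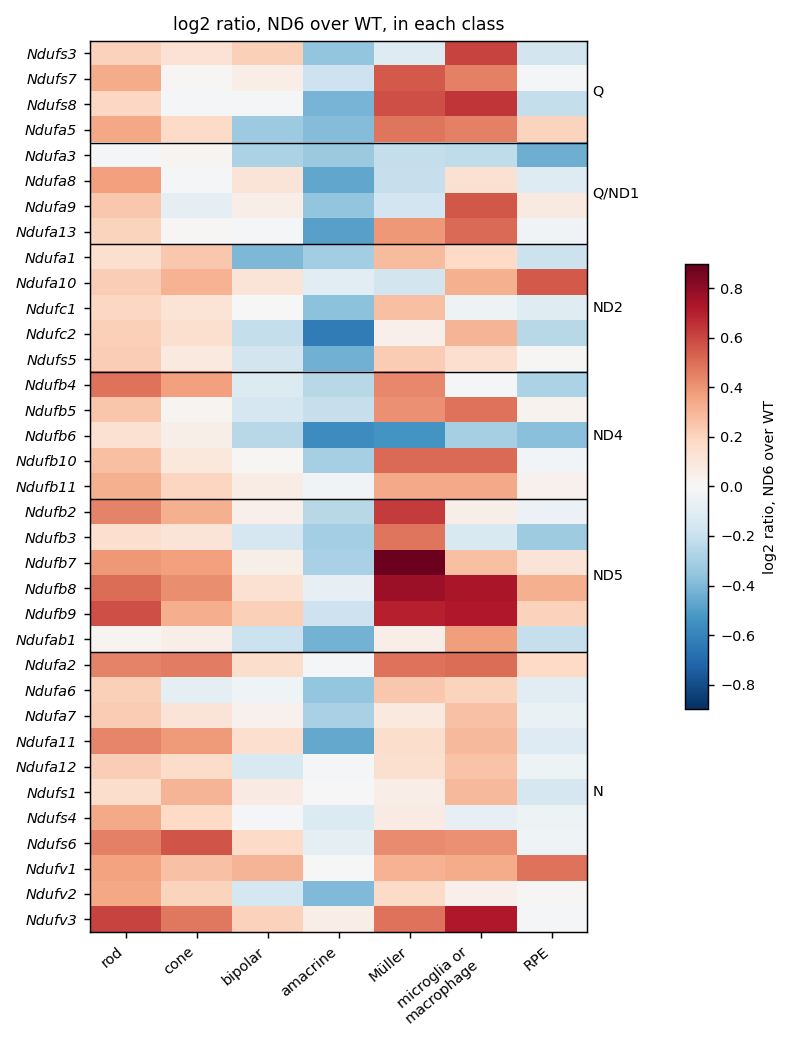
Log2 ratio of ND6 over WT for each of the 35 genes (rows, by module) in the 7 classes (columns), red where ND6 was higher and blue where it was lower. The rod-like and cone-like columns are mostly red (34 and 31 of 35 genes higher), the amacrine-like column is mostly blue (3 of 35 higher), and the RPE-like column turns mostly red (31 of 35 higher) when cluster 20 is left out.

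Counted per cell, the subunit messages are sparse. With every cell thinned to 400 UMIs, the 35 genes together gave on average 4.05 UMIs in WT and 4.63 in ND6, and the median cell held UMIs of 4 of the genes in each library. Before thinning, the median was 15 genes in WT and 14 in ND6. In rod-like cells the thinned mean was 4.06 and 4.77 UMIs, and in amacrine-like cells 4.06 and 2.90.

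Other genes of complex I were compared in the same way. The gene with the mutation, mt-Nd6, had 44.8 CPM in WT and 26.8 CPM in ND6 (log2 ratio -0.74, -0.83 to -0.65). All 7 mtDNA-encoded subunit genes were lower in ND6 over all cells, 4 of them past 0.5, and their sum was 19382 CPM in WT and 15575 CPM in ND6. Of all genes with at least 500 UMIs, 49% were lower and 5.23% had a log2 ratio of at most -0.5. With at least 20 UMIs the shares were 43.3% and 8.78%. The limit on mtDNA-encoded UMIs removed a larger share of the WT barcodes and bears on these levels. Scaled to nuclear UMIs only, the log2 ratio of the 35 nuclear subunit genes was 0.20 in place of 0.22.

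Of 18 assembly factors tested, which build the complex but are not part of it, 7 were higher and 11 lower in ND6, with a median log2 ratio of -0.16 and a sum of 712 CPM in WT and 671 CPM in ND6. Tmem186 passed 0.5 upwards (12.2 and 18.5 CPM, 0.60) and Ndufaf6 downwards (23.9 and 15.1 CPM, -0.66). Of all genes with at least 20 UMIs, 56.7% were higher, 21.6% passed 0.5 upwards and 8.78% downwards. In rod-like cells, 5 of 18 were higher, Tmem186 among them (0.54), and Foxred1 (-0.57) and Tmem70 (-0.58) were lower besides Ndufaf6 (-0.69), whereas 34 of the 35 structural genes were higher there. In amacrine-like cells, 5 of 18 assembly factors and 3 of the 35 structural genes were higher. Of all genes tested, 52.1% were higher in rod-like and 54.1% in amacrine-like cells. The difference between the lists was not tested.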

How the data were processed

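The authors deposited UMI counts of every barcode, neither filtered nor normalized; per the submitters' processing notes, Cell Ranger 3.0.2 and mm10 were used. The annotation release is not given in the sources used here. Members and gene lists were chosen with earlier results of these data known. Genes were named by fixed ranks of ratio, level and share. The 3000 most variable genes, without members and mtDNA-encoded genes, were reduced to 30 principal components and clustered with 20 neighbours and Leiden at resolution 1 (scanpy 1.11.5, leidenalg 0.10.2).

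A cluster of at least 20 cells was named for a class with 3 markers raised 2-fold over other cells and with the first marker and the most markers among its leading 10 genes. Rod-like clusters had no other class raised and 3 rod markers raised 2-fold over named clusters other than cones; the naming rule was settled after clusters were seen. Clusters 4 and 19 stayed unnamed, and 3 with rod RNA above the free level were left out of classes. No doublet caller was run, and doublets were kept. UMIs were summed per library and scaled to CPM (scipy 1.17.1), with exact Poisson, binomial and conditional intervals. Intervals were tested on simulated data. Coordinates are from GENCODE M21 (GRCm38) by Ensembl ID and RefSeq GRCm38.p6.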

Additional observations from a re-analysis of the deposited data

Results flagged for a closer look

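The summed level of the 35 genes moved in opposite directions in 2 pairs of classes. In amacrine-like cells, the log2 ratio of ND6 over WT was -0.276, against 0.319 in rod-like cells. In RPE-like cells it was -0.033, against the same 0.319 in rod-like cells, but 0.32 without the cluster held almost wholly by the WT library. With 1 library per genotype, neither difference was tested.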

How the results depend on the processing

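No paired analysis was possible because each genotype has 1 library. Of 114 main values under alternatives, 93 were near the reported value. The summed log2 ratio over all cells (0.22) stayed above 0, outside its counting interval, at 0.20 per nuclear UMI (0.2049), 0.16 (0.1559) with median-of-ratios factors, 0.18 with per-cell means (0.1849) and without the mtDNA limit (0.1849), 0.20 with at least 2000 UMIs per cell (0.2019) or thinned cells (0.1960), and 0.21 (0.2065) without the 5% of cells with most UMIs. The count of genes higher in ND6 was, in bipolar-like cells (19), 10 with median-of-ratios factors and 12 with per-cell means; in amacrine-like cells (3), 1 with median-of-ratios factors, 0 with per-cell means, 5 with at least 2000 UMIs, 1 after free RNA subtraction, 10 at Leiden resolution 2 and 1 of the 26 genes with at least 500 UMIs (all such genes, 43.5%); in RPE-like cells (12), 22 with per-cell means, 19 thinned and 31 without cluster 20; in Müller-like cells (29), 1 of 1 gene left thinned. Classes below rod-like cells in WT (2) were 4 with per-cell means and 5 thinned. Signs turned for Ndufb6 in Müller-like cells (0.8501 with per-cell means, 0.6779 without the 5% of cells with most UMIs), Ndufs7 (-0.6323) and Ndufb2 (-0.7843) there when thinned, and Ndufa2 in microglia- or macrophage-like cells (-0.4356) after free RNA subtraction; the cause was not tested. Alternatives chosen after seeing the data were the equal weighting of clusters, the RPE-like class without cluster 20 (also against rod-like cells), and cones with the clusters rich in rod RNA. Over single genes, 2025 of 2642 values stayed within the counting interval. All-gene medians of the log2 ratio lay within 0.07 of 0 over all cells and in the 7 classes, but reached 0.20 (cluster 1) and -0.15 (cluster 7) in single clusters. None of the 35 genes had 500 UMIs in Müller-like or microglia- or macrophage-like cells.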

Other observations

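Barcodes above the limit of 20% mtDNA-encoded UMIs numbered 10647 in WT and 3861 in ND6. In them the 35 genes had 8808 CPM in WT (8757 to 8860) and 7927 CPM in ND6 (7847 to 8009), and 13150 and 11806 UMIs per 1000000 nuclear UMIs. The direction there is opposite to that in cells within the limit.

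Clusters outside the named classes gave further values. Unnamed cluster 4, led by Nefl and Glul, had 8386 CPM in WT and 8395 CPM in ND6, with 16 of 35 genes higher against 61.6% of all genes tested. Cluster 9, with cone markers and a median of 32404 UMIs in WT and 19840 in ND6, had 6279 and 7742 CPM, with 34 of 35 genes higher against 46.8%. Cluster 8, with globin genes and rod RNA, had 9481 and 12017 CPM, with 33 of 35 higher against 62.5%. Cluster 11, also with cone markers, had 10422 and 11596 CPM, with 21 of 35 higher against 54.1%. Unnamed cluster 19 had 8523 and 8982 CPM, with 23 of 35 higher against 54.9%.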
